A study of Mus musculus with 4 samples.

Results

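Immediate-early and stress response genes are genes that cells switch on soon after a stimulus, an injury or handling, with heat shock and feedback genes that are induced beside them. The module holds 38 genes, chosen by name from a fixed list of symbols and found by symbol among the 32285 genes of the count tables, and all 38 were present. Earlier results of these data were known when the members were chosen. Their RNA was followed across 4 libraries of sorted CD45+ liver cells and across marker-gated cell classes. The study asks how the microRNA miR-146a and the chemokine gene Ccl5 bear on liver cancer in mice. All mice were female on a C57BL/6 background, and each group is 1 library. The untreated WT group was about 8 weeks old by the labels and had no treatment. The treated groups were 36 weeks old by the labels and were WT, miR-146a-/- (mir146-/- in the labels) or DKO, which lacks both miR-146a and Ccl5. Treated mice got the liver carcinogen diethylnitrosamine (DEN, 25 mg/kg, intraperitoneally) on day 14 of life. They were weaned on day 21 onto a choline-deficient diet of 60% fat (CDHFD). How many mice gave each library is not stated.

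Immediate-early genes such as Fos, Jun and Egr1 need no new protein to be transcribed, because kinases activate factors already bound at their promoters, and their short-lived transcripts are soon cleared. Many of their products are transcription factors that pair into the AP-1 complex, and others are phosphatases and RNA-binding proteins that end the response. In liver they are known for induction after partial hepatectomy and injury, and in sorted immune cells also for induction by enzymatic dissociation and warming. Liver was digested with collagenase before the sort by the study's methods, and cells for these libraries were stained with DAPI and an anti-CD45 antibody. Dissociation, handling and library cannot be told apart from the groups here.

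Transcripts were counted as unique molecular identifiers (UMIs) by 10x Genomics 5' sequencing. The deposited tables held 10985 cells and 90756272 UMIs for untreated WT, 9120 cells and 103165826 UMIs for treated WT, 8393 cells and 88706063 UMIs for miR-146a-/-, and 10623 cells and 103147246 UMIs for DKO. After limits on detected genes and mitochondrial UMIs, 10283, 8329, 7824 and 9850 cells remained, with medians of 6782, 8210, 7910 and 7558 UMIs per cell. Wherever 4 values follow each other below, they stand in this order: untreated WT, treated WT, miR-146a-/-, DKO. Any pair of libraries shared 109 to 150 cell barcodes, 1.26% to 1.64% of the smaller library. Ccl5 was at 6174, 12544, 12496 and 65.4 counts per 1000000 UMIs (CPM), so its level was low in the library labelled Ccl5-/- alone. The tables have no entry for miR-146a, so that allele could not be checked.

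Cells were placed in 17 classes by lineage markers that are not members of the module, which took in 77.5%, 75.5%, 84.9% and 80.7% of the kept cells. Within each class the markers of its own lineage summed higher than those of any other lineage, except in type 2 conventional dendritic cells (cDC2). There monocyte markers summed to 1806, 687, 1632 and 989 CPM and cDC2 markers to 1538, 925, 809 and 905 CPM, so these cells also held monocyte marker RNA in amounts that differed between libraries, and its part in the cDC2 ratios was not tested. In the treated WT library, T-cell markers summed to 4812 CPM in PD-1+ CD8 T cells, where B-cell markers summed to 15.0 CPM, and B-cell markers summed to 6414 CPM in B cells, where T-cell markers summed to 29.8 CPM. Classical monocytes there held 12449 CPM of monocyte markers and also 601 CPM of T-cell markers. Across the 4 libraries T-cell markers in classical monocytes summed to 555, 601, 419 and 248 CPM. In patrolling monocytes they summed to 294, 206, 82.0 and 51.3 CPM, so in both classes they were higher in both WT libraries. Neutrophil markers in PD-1+ CD8 T cells went the other way, at 1.64, 1.63, 13.5 and 11.3 CPM. NK markers, which did not exclude a cell from the T-cell classes, summed to 767, 995, 1263 and 1429 CPM in CD4- CD8- T cells. T-cell markers in that class summed to 3130, 2622, 2591 and 2431 CPM, so its make-up may differ between libraries. The part of these markers in the class ratios was not tested. The 13 classes with at least 50 cells in every library were used to compare libraries. A class-standardised log2 ratio is the equal-weight mean over these 13 classes of the log2 ratio of CPM, so that shifts in class shares do not move it. Intervals are 95% and cover counting error only. With 1 library per group there is no replicate check and no test, and every difference below is a difference between libraries.

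Summed over the 38 members, the module took up 18532 CPM (18503 to 18561) in untreated WT, 16591 CPM (16564 to 16619) in treated WT, 9339 CPM (9318 to 9360) in miR-146a-/- and 10274 CPM (10253 to 10294) in DKO. Both WT libraries were high and both libraries without miR-146a were low. The same order of high and low held in each of the 13 classes. NK cells, for instance, held 23975, 21195, 9618 and 10633 CPM, and B cells, where the libraries were closest, held 15796, 13393, 9360 and 9377 CPM.

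**Figure D1:**
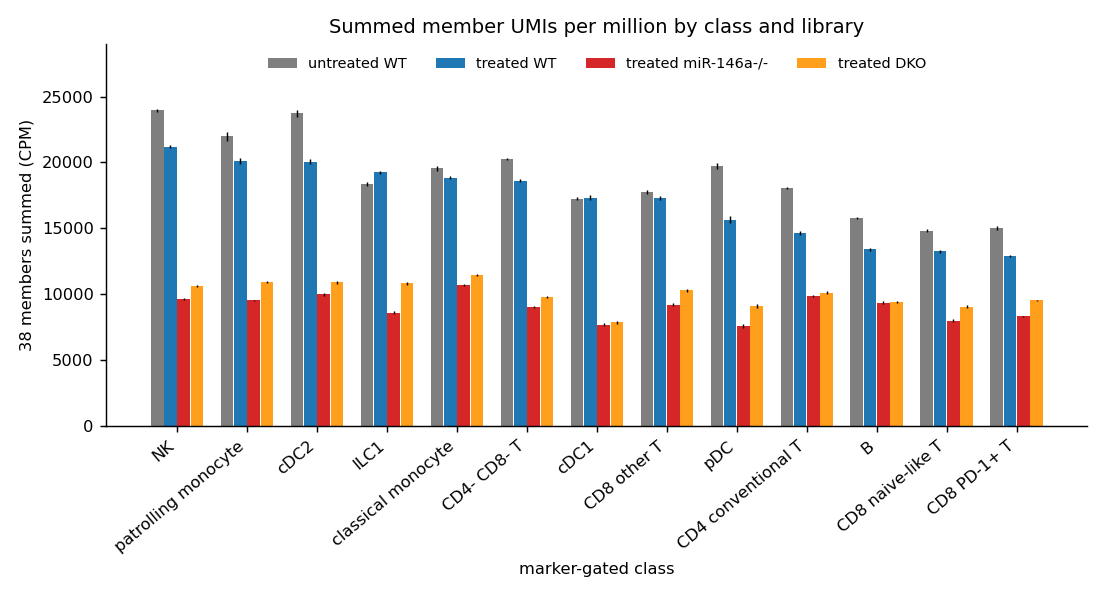
Summed level of the 38 members in CPM (bars, from 0) in each of 13 cell classes and 4 libraries, with exact 95% Poisson intervals as error bars. In every class shown both WT libraries lie above both libraries without miR-146a; NK cells range from 23975 CPM in untreated WT to 9618 CPM in miR-146a-/-.

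Other measures of the libraries moved in part with this split. Hepatocyte markers (6 of 6 detected in every library, most abundant Alb at 10.2, 9.07, 5.17 and 6.71 CPM) summed to 20.5, 19.9, 12.2 and 13.6 CPM, so they too were higher in both WT libraries. Endothelial markers (5 of 5) summed to 12.9, 9.92, 8.71 and 10.4 CPM. Erythrocyte markers (4 of 4, most abundant Hbb-bs at 172, 65.0, 210 and 142 CPM) summed to 251, 134, 365 and 246 CPM. Stellate markers (4 of 4, most abundant Dcn) summed to 0.453, 0.689, 0.453 and 0.517 CPM. Mitochondrial UMIs were 1.15%, 1.12%, 1.11% and 1.04% of the total and ribosomal protein UMIs 19.3%, 17.5%, 17.6% and 18.2%. The nuclear RNA Malat1 was 0.679%, 0.496%, 0.463% and 0.472%, highest in untreated WT. Their part in the result was not tested.

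The promoters of 5 members are shown here because the members group by promoter letters that the choice of genes did not use; these 5 were chosen after their values were seen. RefSeq gives promoter windows (250 bases before to 50 after the gene start, GRCm38.p6) for 32 of the 38 members, and Egr1, Egr3, Ier2, Cd69, Rgs1 and Zfp36l2 are named only. Capitals mark letters of the cyclic AMP response element (CRE, TGACGTCA), of its partial form TGACG, or of the heat shock element GAANNTTC, found on either strand (CGTCA is TGACG read on the other strand). Fos lies at chr12:85473640-85473939 on the + strand and Nr4a1 at chr15:101266596-101266895 on the + strand, the latter window being 12577 bases from the annotated start of the gene. Ppp1r15a lies at chr7:45526219-45526518 on the - strand. The heat shock genes Hspa1a and Hspa1b lie at chr17:34972107-34972406 and chr17:34959189-34959488, both on the - strand, and are shown as near-identical copies.
Fos: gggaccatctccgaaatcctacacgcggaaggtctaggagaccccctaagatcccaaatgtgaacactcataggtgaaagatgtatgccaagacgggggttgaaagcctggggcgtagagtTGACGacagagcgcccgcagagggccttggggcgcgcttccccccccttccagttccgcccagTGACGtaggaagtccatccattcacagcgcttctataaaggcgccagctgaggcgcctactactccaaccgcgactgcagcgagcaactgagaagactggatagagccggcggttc
Nr4a1: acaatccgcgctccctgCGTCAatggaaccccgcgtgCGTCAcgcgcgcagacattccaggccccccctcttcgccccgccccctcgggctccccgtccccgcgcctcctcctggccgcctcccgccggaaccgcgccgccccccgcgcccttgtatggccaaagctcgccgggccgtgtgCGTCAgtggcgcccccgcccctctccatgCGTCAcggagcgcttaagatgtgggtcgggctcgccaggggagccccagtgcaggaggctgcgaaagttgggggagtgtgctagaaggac
Ppp1r15a: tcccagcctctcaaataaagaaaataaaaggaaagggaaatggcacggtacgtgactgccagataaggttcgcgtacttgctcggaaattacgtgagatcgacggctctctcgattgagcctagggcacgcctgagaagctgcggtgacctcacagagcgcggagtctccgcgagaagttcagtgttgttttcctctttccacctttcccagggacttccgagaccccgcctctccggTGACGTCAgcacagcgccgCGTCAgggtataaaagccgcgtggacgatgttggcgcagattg
Hspa1a: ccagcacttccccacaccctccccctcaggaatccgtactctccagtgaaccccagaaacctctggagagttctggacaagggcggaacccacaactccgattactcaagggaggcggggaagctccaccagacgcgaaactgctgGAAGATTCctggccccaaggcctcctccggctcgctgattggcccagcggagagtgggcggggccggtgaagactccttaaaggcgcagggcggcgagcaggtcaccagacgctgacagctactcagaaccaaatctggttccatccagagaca
Hspa1b: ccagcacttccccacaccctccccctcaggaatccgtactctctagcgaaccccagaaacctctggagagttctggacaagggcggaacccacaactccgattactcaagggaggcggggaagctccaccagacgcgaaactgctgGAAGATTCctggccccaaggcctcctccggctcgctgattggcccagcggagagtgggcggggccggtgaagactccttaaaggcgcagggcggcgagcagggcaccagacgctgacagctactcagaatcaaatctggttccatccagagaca

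A member is counted here if the letters stand in at least 1 of its windows in the table (Egr2 has 5, Csrnp1 4, Maff 3 and Dnajb1 2), and the shares beside it are of the 27025 genes of the table, counted in the same way. Besides Nr4a1, other members have windows away from the annotated gene start, at 53656 bases for Dusp1 and 34706 bases for Atf3. For Jund and Zfp36 the distances are 1210 and 1025 bases. TGACG stood in 19 of 32 members (59.4%, against 23.0%). The 19 were Atf3, Btg1, Btg2, Csrnp1, Dnajb1, Dusp1, Dusp2, Dusp5, Egr2, Fos, Fosb, Junb, Klf2, Klf4, Maff, Nr4a1, Nr4a2, Nr4a3 and Ppp1r15a. The full CRE, which contains TGACG, stood in 4 members (12.5%, against 2.03%), namely Btg2, Dusp1, Maff and Ppp1r15a. The CArG box, the binding sequence of serum response factor, stood in Dusp5, Egr2 and Zfp36 (9.38%, against 1.81%). Heat shock letters stood in 5 members (15.6%, against 9.04%): Fosl2, Hspa1a, Hspa1b, Ier5l and Jun. The AP-1 letters TGACTCA stood in Csrnp1 alone (3.12%, against 5.95%). These matches describe letters in a window and say nothing of factor binding. Hspa1a and Hspa1b differ at 4 of 300 window bases (98.7% the same) and at 10 positions of their coding frames of 1926 and 1929 bases (99.5% the same), so the assignment of reads between them is uncertain. They lie 9952 bases apart on chromosome 17, and Junb and Ier2 lie 311.6 kb apart on chromosome 8; chromosomes 17 and 8 each carry 5 members.

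Treated WT over untreated WT asks what differs between livers of older mice after DEN and CDHFD and livers of young untreated mice, and age, diet and carcinogen cannot be told apart. The module as a whole differed little. The heat shock gene Hspa1b was lower in treated WT, at 354 CPM against 636 CPM, and Jun was at 672 CPM against 989 CPM. The orphan nuclear receptor Nr4a2 and Ier5l were higher, at 220 against 114 CPM and at 38.9 against 13.1 CPM. The summed level was at 0.895 of the untreated level over all kept cells, a log2 ratio of -0.16, and the class-standardised ratio was -0.15 (-0.15 to -0.14), from -0.34 in plasmacytoid dendritic cells (pDC) to 0.07 in ILC1. It lay below 0 in 11 classes and above 0 in 2.

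Of the 37 members past the filter on low counts, Ier5l and Nr4a2 were more than 1.5-fold higher, where 4.0% of 10167 genes were, and Hspa1b was more than 1.5-fold lower, where 2.20% were. These shares are near those of all genes. The median class-standardised log2 ratio was 0.03 for these members and 0.00 for all genes past the filter. Sum and mean differ in sign: the sum is carried by abundant members such as Junb and Jun, while the mean of the 38 log2 ratios was 0.04, and 17 members lay below 0 and 21 above. With all kept cells summed, without regard to class, 4 members were past 1.5-fold higher and 2 lower, against 6.26% and 4.07% of genes. At a 2-fold threshold none was higher or lower (0 of 37), against 1.45% and 0.629% of genes. The count of higher members was also 4 with classes weighted by their untreated WT cells (5.46% of genes), and with no limit on markers of other lineages (4.29% of genes). Ribosomal protein share and Malat1 differed between these libraries as given above, and their part was not tested.

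miR-146a-/- over WT, both treated, asks what the loss of miR-146a is accompanied by in livers given the same carcinogen and diet. Every member had a lower class-standardised level without miR-146a. Fos was at 368 CPM against 1105 CPM, its relative Fosb at 20.9 against 95.6 CPM, and the stress-induced repressor Atf3 at 92.7 against 242 CPM. Summed, the module was at 0.563 of the WT level over all kept cells (log2 -0.83, -0.83 to -0.82) and at 0.532 class-standardised (log2 -0.91, -0.92 to -0.90). All 13 classes lay below 0, from -1.17 in type 1 conventional dendritic cells (cDC1) to -0.52 in B cells.

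All 38 members passed the filter here, and 34 were more than 1.5-fold lower, against 5.27% of 10158 genes. None was more than 1.5-fold higher, against 1.37% of genes. Because members were chosen with earlier results of these data known, these shares describe the list and are not independent evidence. The members' median log2 ratio was -1.05, and that of all genes past the filter -0.02. The 4 members short of 1.5-fold were Zfp36l1, Zfp36l2, Btg1 and Ier3, with log2 ratios of -0.38, -0.35, -0.29 and -0.18. Over all kept cells Ier3 was past 1.5-fold lower, at -0.82 (-0.87 to -0.78). At a 2-fold threshold 21 members were lower, against 1.69% of genes. With all kept cells summed, 27 of 37 members past the filter were more than 1.5-fold lower, against 3.23% of genes. Members such as Klf2 (-0.45), Nr4a2 (-0.43), Nr4a1 (-0.40), Klf4 (-0.10) and Socs3 (-0.10) then fell short of 1.5-fold. Median depth per cell was 8210 UMIs in treated WT and 7910 in miR-146a-/-, and hepatocyte markers were at 19.9 and 12.2 CPM; their part in the result was not tested.

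**Figure D2:**
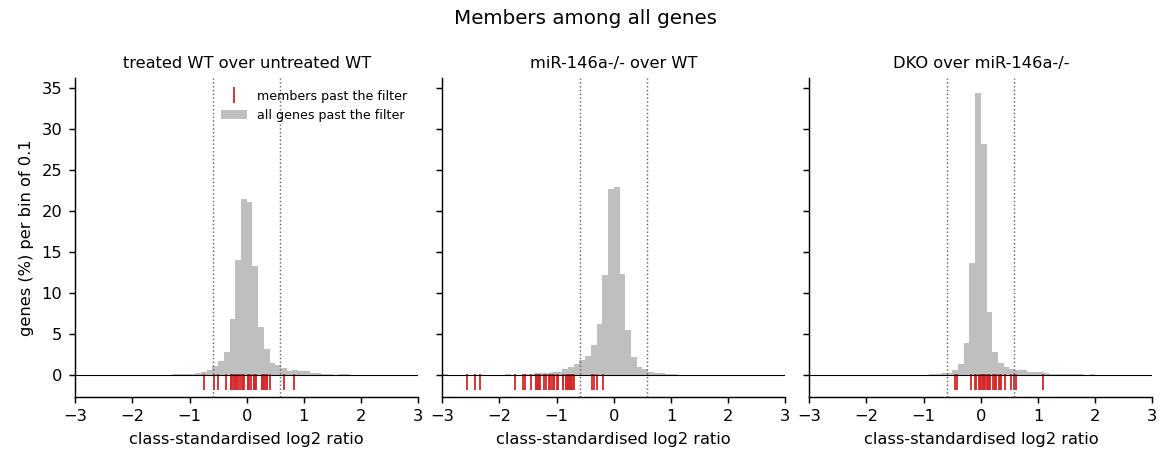
Class-standardised log2 ratios of all genes past the filter (grey histogram, share of genes in %) and of the members (red ticks) in the 3 comparisons. In miR-146a-/- over WT the members have a median of -1.05 and all genes one of -0.02; in the other comparisons the members' medians are 0.03 and 0.09.

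DKO over miR-146a-/-, both treated, asks what the added loss of Ccl5 is accompanied by. The module was slightly higher in DKO, with Atf3 at 134 against 92.7 CPM, Fos at 537 against 368 CPM and the phosphatase gene Dusp1 at 559 against 420 CPM. Nr4a2 went the other way, at 79.3 against 163 CPM. The summed log2 ratio was 0.14 (0.13 to 0.14) over all kept cells and 0.15 (0.14 to 0.15) class-standardised, from 0.00 in B cells to 0.33 in ILC1. Levels in DKO remained below those of both WT libraries in all 13 classes.

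Of 36 members past the filter in this comparison, Atf3 and Klf4 were more than 1.5-fold higher, against 3.44% of 10158 genes. None was more than 1.5-fold lower, against 0.591% of genes. The share of members past the threshold is again near that of all genes. Their median log2 ratio was 0.09 and that of all genes -0.01, with 10 of the 38 members below 0 and 28 above. The count of 2 went to 1 at a 2-fold threshold, against 1.55% of genes. With all kept cells summed it went to 0, against 1.74% of genes, and 1 member, Nr4a2 at -1.04, was past 1.5-fold lower, against 0.985%. With classes weighted by their untreated WT cells 1 member was also lower, against 0.817% of genes. The 3 comparisons share libraries, so their values for a member are set side by side below without being counted against each other. Where 3 log2 ratios follow each other, they are class-standardised and stand in the order of these comparisons.

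**Figure D3:**
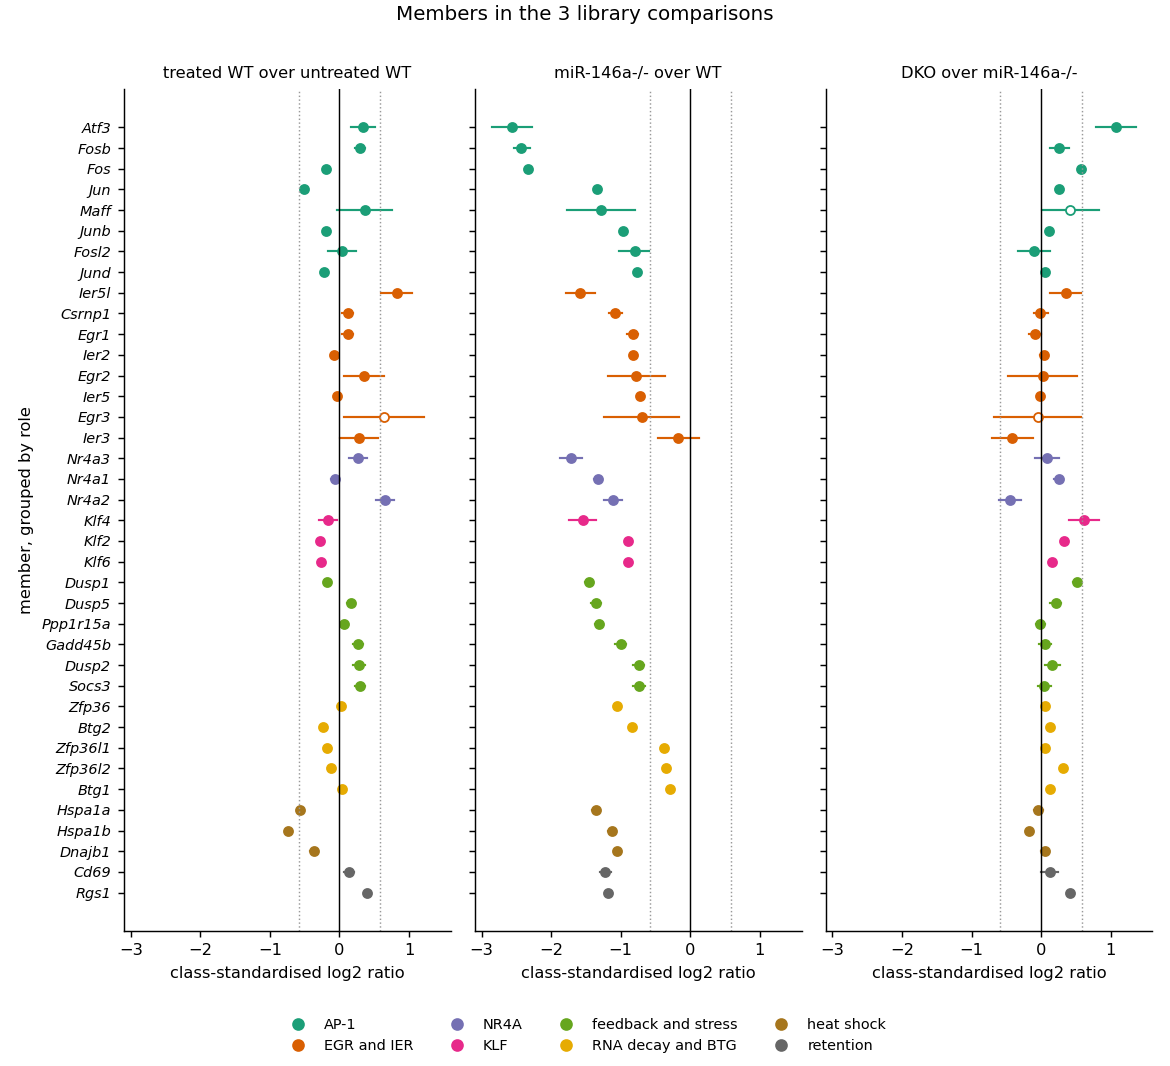
Class-standardised log2 ratio of each of the 38 members (points) with 95% counting intervals in the 3 comparisons; open circles did not pass the filter and dotted lines mark 1.5-fold. All 38 points lie below 0 in miR-146a-/- over WT, from -2.56 for Atf3 to -0.18 for Ier3.

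The AP-1 group holds 8 members: the Fos proteins Fos, Fosb and Fosl2, their partners Jun, Junb and Jund, the related factor Atf3 and the small Maf protein Maff. Together they took up 6943, 5766, 2837 and 3121 CPM. Both WT libraries were high, and the group's log2 ratios were -0.23, -1.13 and 0.17. In miR-146a-/- over WT 8 of 8 were more than 1.5-fold lower, against 5.27% of all genes. Fos, whose protein pairs with Jun proteins, was at 1116 (1109 to 1123), 1105 (1098 to 1112), 368 (364 to 373) and 537 (532 to 541) CPM. The WT libraries differed little, and Fos was lowest in miR-146a-/-, with log2 ratios of -0.19, -2.34 (-2.38 to -2.30) and 0.58 (0.54 to 0.63). The last is just short of 1.5-fold, and Fos was higher in DKO in 13 of 13 classes. Its promoter, printed above, carries TGACG at 2 places.

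Fosb, a close relative of Fos, was at 83.7, 95.6, 20.9 and 25.9 CPM. It was high in both WT libraries and low in both others, with log2 ratios of 0.30 (0.22 to 0.37), -2.43 (-2.54 to -2.31) and 0.26 (0.12 to 0.40). Fosl2, a Fos protein that is usually induced later, was at 39.4, 38.9, 26.0 and 24.7 CPM. Its split was smaller, with log2 ratios of 0.03, -0.80 (-1.02 to -0.59) and -0.10. Atf3, a repressor induced by many stresses, was at 107, 242, 92.7 and 134 CPM. Treated WT alone was high over all cells, but class-standardised both WT libraries were high: the ratio of treated to untreated WT was 1.18 over all cells and 0.34 (0.17 to 0.51) class-standardised. In miR-146a-/- over WT Atf3 was at -2.56 (-2.85 to -2.28), the lowest class-standardised ratio of any member, to which sparse classes such as ILC1 (-5.01, 265 and 4 UMIs) add. Over all cells it was at -1.38, above Fosb (-2.20), Ier5l (-1.97), Nr4a3 (-1.60) and Fos (-1.58). In DKO over miR-146a-/- Atf3 was at 1.08 (0.79 to 1.36), above 0 in 13 of 13 classes. With all kept cells summed the latter was 0.53, short of 1.5-fold.

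Jun, the partner that can bind DNA with Fos or with itself, was at 989, 672, 289 and 347 CPM. Untreated WT was highest and miR-146a-/- lowest, with log2 ratios of -0.51 (-0.53 to -0.48), -1.34 (-1.37 to -1.31) and 0.25 (0.22 to 0.28), and the first lay below 0 in 13 of 13 classes. Junb, which is abundant in lymphocytes, was at 2888, 2217, 1201 and 1206 CPM. The libraries without miR-146a were low and alike, with log2 ratios of -0.19, -0.97 (-0.99 to -0.95) and 0.11. Jund, the Jun gene with the steadiest expression in resting cells, was at 1712, 1384, 835 and 841 CPM. It shows the same split at smaller size, with log2 ratios of -0.22, -0.76 (-0.78 to -0.74) and 0.06. Maff, a small Maf protein without an activation domain, was at 8.85, 11.8, 4.54 and 5.65 CPM. Both WT libraries were again the higher ones, with log2 ratios of 0.36 (-0.03 to 0.75), -1.29 (-1.78 to -0.80) and 0.42 (0.01 to 0.83), and Maff did not pass the filter in DKO over miR-146a-/-.

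The EGR and IER group (8 members) took up 1069, 1125, 677 and 683 CPM, with log2 ratios of 0.05, -0.79 and 0.00. Both WT libraries were high, and 7 of 8 members were more than 1.5-fold lower in miR-146a-/- than in WT (5.27% of all genes). Ier2, a nuclear protein of early growth responses, was at 443, 400, 258 and 259 CPM. Its WT levels were alike, as were those without miR-146a, with log2 ratios of -0.08, -0.82 (-0.86 to -0.77) and 0.04. Egr1, a zinc finger factor induced through serum response factor, was at 99.3, 96.5, 56.3 and 62.5 CPM. It follows the same split, with log2 ratios of 0.12, -0.83 (-0.91 to -0.75) and -0.09. Egr2, which restrains activated T cells, was at 7.24, 10.8, 7.54 and 6.15 CPM. Treated WT alone stood higher, with log2 ratios of 0.35 (0.07 to 0.64), -0.78 (-1.19 to -0.37) and 0.02 (-0.48 to 0.52). Egr3, its close relative, was at 6.02, 4.85, 4.10 and 3.37 CPM. It passed the filter only in miR-146a-/- over WT, where the ratio was -0.70 (-1.24 to -0.16).

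Ier3, a regulator of cell survival, was the exception of this group at 24.9, 115, 65.0 and 56.1 CPM. Untreated WT was lowest, and the ratio of treated to untreated WT was 2.21 over all cells but 0.28 (0.01 to 0.55) class-standardised. Class-standardised, its other ratios were -0.18 (-0.47 to 0.12) and -0.42 (-0.71 to -0.12). In miR-146a-/- over WT the class ratios of Ier3 ran from -2.15 in cDC1 to 2.16 in B cells. Over all cells that ratio was -0.82 (-0.87 to -0.78). PD-1+ CD8 T cells, in which Ier3 stood at 89.3, 353, 141 and 160 CPM, made up 362 cells of untreated WT and 1452 of treated WT. Ier5l, a relative of Ier5, was at 13.1, 38.9, 9.90 and 11.8 CPM. Treated WT alone was high, with log2 ratios of 0.82 (0.59 to 1.04), -1.58 (-1.79 to -1.37) and 0.35 (0.12 to 0.57), and in 12 of 13 classes treated WT exceeded untreated WT. Ier5, linked to heat shock factor activity, and Csrnp1, a nuclear protein induced by axin, had log2 ratios of -0.72 and -1.08 in miR-146a-/- over WT.

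The NR4A group holds the orphan nuclear receptors Nr4a1, Nr4a2 and Nr4a3, which report antigen receptor signalling in lymphocytes, and took up 512, 652, 456 and 425 CPM. Its log2 ratios were 0.14, -1.12 and -0.01, and in miR-146a-/- over WT 3 of 3 members were more than 1.5-fold lower (5.27% of all genes). Nr4a1, which patrolling monocytes need for their development, was at 331, 350, 266 and 321 CPM. Over all cells the libraries were close, at -0.40 for miR-146a-/- over WT, while the class-standardised ratio was -1.33 (-1.39 to -1.27). Patrolling monocytes, the class with the highest Nr4a1 level in every library, numbered 148 gated cells in treated WT and 643 in miR-146a-/-. In them Nr4a1 stood at 1391, 1130, 1051 and 1012 CPM, a log2 ratio of -0.10 in miR-146a-/- over WT. NK cells held 888, 963, 194 and 183 CPM, a ratio of -2.31; both classes were singled out after their values were seen. Its promoter, printed above, holds TGACG letters at 4 places.

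Nr4a2, which marks repeatedly stimulated T cells, was at 114, 220, 163 and 79.3 CPM. Treated WT was highest and DKO lowest, and the log2 ratios were 0.66 (0.53 to 0.79), -1.11 (-1.24 to -0.98) and -0.45 (-0.61 to -0.29). The first lay above 0 in 13 of 13 classes. PD-1+ CD8 T cells, singled out after their values were seen, went against the others, with Nr4a2 at 286, 431, 602 and 297 CPM. There miR-146a-/- was the highest library, with log2 ratios of 0.59, 0.48 and -1.02. Nr4a3, the third receptor, was at 67.8, 82.3, 27.2 and 24.3 CPM. It was high in both WT libraries, with log2 ratios of 0.27 (0.13 to 0.40), -1.72 (-1.87 to -1.56) and 0.08 (-0.09 to 0.25).

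The KLF group (Klf2, Klf4 and Klf6) took up 1928, 1371, 925 and 1084 CPM, with log2 ratios of -0.30, -0.83 and 0.24. In miR-146a-/- over WT 3 of 3 members were more than 1.5-fold lower, against 5.27% of all genes. Klf2, which holds lymphocytes in quiescence and drives the gene of the egress receptor S1pr1, was at 1279, 860, 630 and 757 CPM. Untreated WT was highest, with log2 ratios of -0.28 (-0.30 to -0.26), -0.89 (-0.92 to -0.86) and 0.33 (0.30 to 0.36). In B cells Klf2 stood at 1816, 1298, 1270 and 918 CPM (log2 -0.03 in miR-146a-/- over WT), and in ILC1, where it was lowest in every library, at 320, 244, 44.3 and 74.0 CPM (log2 -2.45). Klf4, a factor of monocyte differentiation, was at 46.5, 59.2, 55.1 and 66.7 CPM over all cells. These all-cell levels lay close together, while the class-standardised ratios were -0.16 (-0.29 to -0.03), -1.55 (-1.75 to -1.35) and 0.61 (0.40 to 0.83). Patrolling monocytes again held the most Klf4 in every library, at 438, 262, 235 and 240 CPM, and PD-1+ CD8 T cells little, at 10.1, 7.27, 1.41 and 6.79 CPM. With a prior of 5 UMIs Klf4 in DKO was short of 1.5-fold. Klf6, a wound-induced factor, had a ratio of -0.89 in miR-146a-/- over WT.

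The feedback and stress group (Dusp1, Dusp2, Dusp5, Socs3, Ppp1r15a and Gadd45b) took up 1886, 1940, 1013 and 1195 CPM, with log2 ratios of 0.02, -1.04 and 0.23. In this group 6 of 6 members were more than 1.5-fold lower in miR-146a-/- than in WT (5.27% of all genes). Dusp1, a phosphatase that switches off the MAP kinases p38 and JNK, was at 847, 837, 420 and 559 CPM. Both WT libraries were high and miR-146a-/- was lowest, with log2 ratios of -0.18 (-0.22 to -0.14), -1.45 (-1.51 to -1.40) and 0.52 (0.46 to 0.58), the last above 0 in 13 of 13 classes. NK cells had the lowest ratio of Dusp1 in miR-146a-/- over WT, -2.60, at 918, 724, 119 and 215 CPM. Among the other members the ratios in that comparison ran from -1.36 for Dusp5, an ERK phosphatase, to -0.74 for Dusp2, a nuclear phosphatase of immune cells, and for Socs3, which ends cytokine signals through gp130. Ppp1r15a, which restores translation after stress and whose promoter is printed above, was at -1.31, and Gadd45b, a stress-induced regulator of MAP kinase signalling, at -1.0. Socs3 was at 71.6, 102, 95.3 and 105 CPM over all cells, where treated WT and miR-146a-/- were close (-0.10).

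The RNA decay and BTG group (Zfp36, Zfp36l1, Zfp36l2, Btg1 and Btg2) took up 3612, 3452, 2392 and 2638 CPM. Its split was the smallest among the 8 role groups, with log2 ratios of -0.08, -0.58 and 0.14. Of its members 2 of 5, Zfp36 and Btg2, were more than 1.5-fold lower in miR-146a-/- than in WT (5.27% of all genes). Zfp36 encodes tristetraprolin, which binds AU-rich elements and hastens the decay of cytokine transcripts, and was at 903, 1080, 601 and 692 CPM. It was high in both WT libraries, with log2 ratios of 0.02, -1.05 (-1.07 to -1.02) and 0.06. Btg2, an antiproliferative gene, was at 824, 652, 360 and 389 CPM. Untreated WT was highest, with log2 ratios of -0.24, -0.84 (-0.87 to -0.81) and 0.12. Btg1, which helps to keep T cells quiescent, was at 913, 915, 787 and 815 CPM. The libraries lay close, with log2 ratios of 0.04, -0.29 (-0.32 to -0.27) and 0.13, and conventional CD4 T cells went the other way, at 921, 875, 1267 and 1105 CPM (0.53 in miR-146a-/- over WT; class singled out after its values were seen). Zfp36l1 and Zfp36l2, relatives of Zfp36 that act in lymphocyte development, were at 405, 338, 274 and 292 CPM and at 569, 468, 370 and 451 CPM. Zfp36l2 was higher in DKO than in miR-146a-/- in 13 of 13 classes, at 0.32 (0.29 to 0.35).

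The heat shock group (Hspa1a, Hspa1b and Dnajb1) took up 1518, 934, 435 and 433 CPM. It was highest in untreated WT and lowest in both libraries without miR-146a, with log2 ratios of -0.60, -1.14 and -0.07. In treated over untreated WT 1 of 3 members was more than 1.5-fold lower, against 2.20% of all genes. Hspa1b and Hspa1a encode the same inducible chaperone and carry the heat shock letters printed above. Hspa1b was at 636 (630 to 641), 354 (350 to 358), 168 (165 to 171) and 167 (164 to 169) CPM. Its ratio of treated to untreated WT was -0.74 (-0.77 to -0.71), below 0 in 13 of 13 classes, and its other ratios were -1.13 (-1.18 to -1.09) and -0.18 (-0.22 to -0.13). Hspa1a was at 446, 307, 135 and 139 CPM. It too was highest in untreated WT, with log2 ratios of -0.57 (-0.61 to -0.53), -1.36 (-1.41 to -1.31) and -0.04 (-0.10 to 0.02), the first below 0 in 13 of 13 classes and just short of 1.5-fold. Dnajb1, the co-chaperone that delivers clients to this chaperone, was at 436, 272, 132 and 127 CPM. Untreated WT was again highest, with log2 ratios of -0.37 (-0.42 to -0.33), -1.05 (-1.10 to -1.0) and 0.05 (0.00 to 0.10). With all kept cells summed, Dnajb1 joined Hspa1b past 1.5-fold in treated over untreated WT, at -0.68. The lowest class in that comparison was PD-1+ CD8 T cells for each of the 3 genes, with Hspa1b at 573, 210, 117 and 184 CPM there.

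The retention group, Rgs1 and Cd69, marks lymphocytes that stay in tissues and took up 1063, 1351, 604 and 695 CPM. Its log2 ratios were 0.30, -1.19 and 0.40, and both members were more than 1.5-fold lower in miR-146a-/- than in WT (5.27% of all genes). Rgs1, which dampens chemokine receptor signals, was at 749, 1094, 474 and 551 CPM. Treated WT was highest, with log2 ratios of 0.40 (0.36 to 0.43), -1.19 (-1.23 to -1.15) and 0.42 (0.38 to 0.46). ILC1 held the most Rgs1 in every library, at 2690, 2901, 1393 and 2101 CPM. Conventional CD4 T cells, the only class of the 13 above 0 in miR-146a-/- over WT, held 853, 943, 1047 and 947 CPM (0.15). Cd69, which pulls S1pr1 from the cell surface, was at 314, 257, 130 and 143 CPM and had ratios of 0.14 (0.07 to 0.21), -1.22 and 0.12. Its direction in treated over untreated WT depends on the measure, being -0.29 (-0.32 to -0.27) over all cells.

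**Figure D4:**
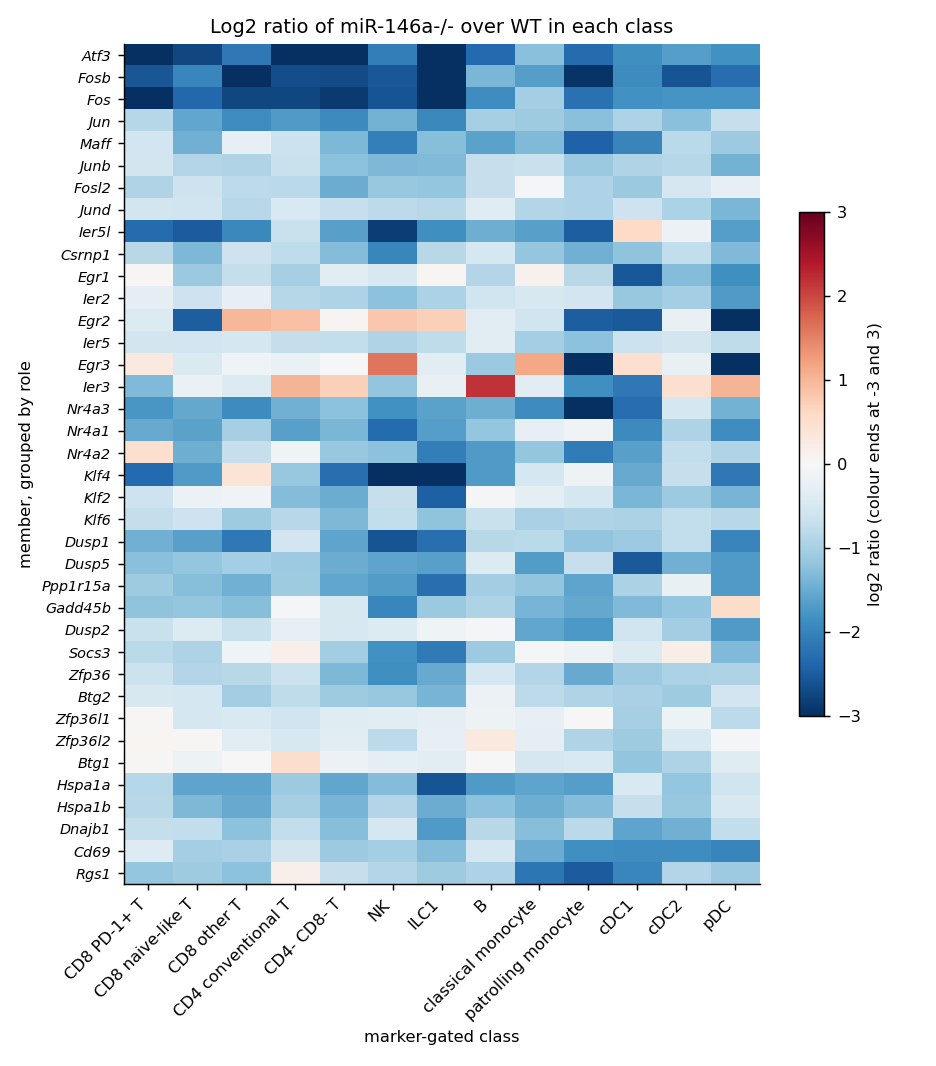
Log2 ratio of miR-146a-/- over WT for each of the 38 members (vertical) in each of 13 classes (horizontal), colour scale from -3 to 3. Fos is below 0 in all 13 classes, from -3.62 in ILC1 to -1.01 in classical monocytes, while Nr4a2 is above 0 in PD-1+ CD8 T cells at 0.48.

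Across classes, the summed ratio of miR-146a-/- over WT was -1.17 in cDC1 and ILC1, -1.14 in NK cells, -1.08 in patrolling monocytes, -1.05 in CD4- CD8- T cells, -1.04 in pDC, -1.01 in cDC2, -0.91 in other CD8 T cells, -0.81 in classical monocytes, -0.73 in naive-like CD8 T cells, -0.63 in PD-1+ CD8 T cells, -0.57 in conventional CD4 T cells and -0.52 in B cells. Innate lymphoid and dendritic classes thus had lower ratios than B cells and most T-cell classes. Macrophages and mature dendritic cells, which had too few cells in untreated WT, were at -0.88 and -0.86. Among the 13 classes NK cells had the highest summed level in both WT libraries, 23975 and 21195 CPM, and classical monocytes in both libraries without miR-146a, 10718 and 11475 CPM. Regulatory T cells, outside the 13 for too few cells in treated WT, lay above the latter at 12014 and 12530 CPM. Fos showed how members differ among classes. Among the 13 it was highest in cDC1 in both WT libraries, at 3451 and 3152 CPM, and lowest in PD-1+ CD8 T cells in every library, at 404, 215, 25.9 and 74.8 CPM. In classical monocytes it stood at 2349, 2325, 1157 and 1405 CPM. Atf3 was largely a myeloid transcript, at 879, 826, 348 and 410 CPM in classical monocytes and 53.3, 53.0, 12.5 and 14.1 CPM in NK cells. Egr1 was at 354, 393, 66.8 and 99.5 CPM in cDC1 (log2 -2.55) and at 71.4, 72.4, 79.3 and 117 CPM in classical monocytes (log2 0.13). The classes of this paragraph were picked after their values were seen.

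The difference lay in most cells. In cells thinned at random to 2000 UMIs, the median number of member UMIs per cell was 36.0, 31.0, 17.0 and 19.0, with 667, 540, 358 and 406 shallower cells left out. The 10% of cells with the fewest held at most 11, 13, 7 and 8, and the 10% with the most held at least 73.0, 61.0, 34.0 and 39.7. Low, middle and high cells were thus all lower in both libraries without miR-146a, and the richest 10% there began near the median of the WT libraries. In NK cells the medians were 49.0, 44.0, 18 and 20.

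**Figure D5:**
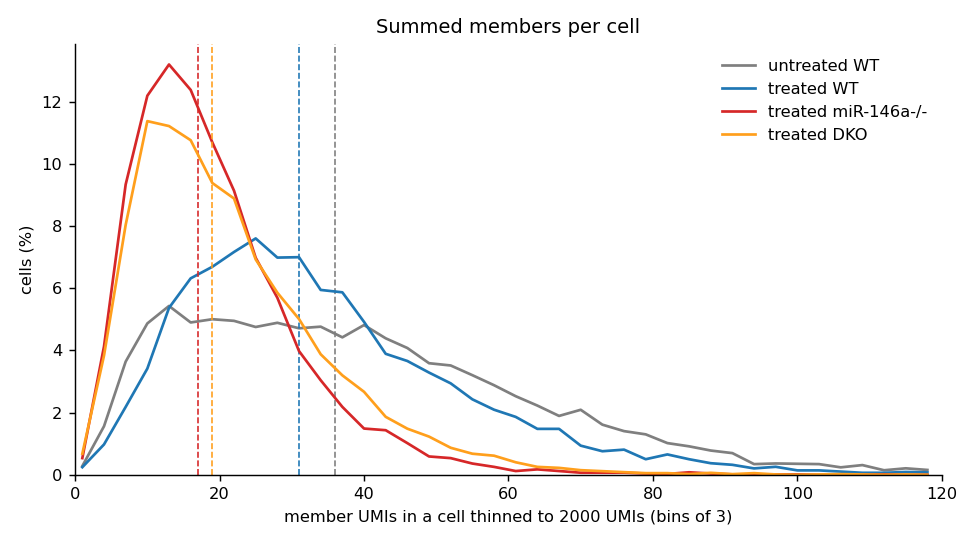
Summed UMIs of the 38 members per cell after thinning each cell to 2000 UMIs (horizontal, bins of 3) against the share of cells (vertical) in each library, with dashed lines at the medians. Medians are 36.0 in untreated WT, 31.0 in treated WT, 17.0 in miR-146a-/- and 19.0 in DKO.

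Shares of cells with at least 1 UMI were lower in both libraries without miR-146a for Fos, Junb and Hspa1a, and for Nr4a1 in miR-146a-/- alone; these 4 were picked after their values were seen. In thinned cells, Fos was found in 51.2% (exact binomial interval 50.2% to 52.2%), 53.8% (52.7% to 54.9%), 23.0% (22.0% to 24.0%) and 30.7% (29.8% to 31.7%) of cells, and unthinned in 67.6%, 73.7%, 42.5% and 49.5%. Its lowest class was PD-1+ CD8 T cells, at 29.9%, 20.2%, 4.11% and 8.19%, with median depths there of 6877, 7222, 6837 and 6106 UMIs. Junb was found in 84.0% (83.3% to 84.7%), 84.7% (83.9% to 85.5%), 69.4% (68.4% to 70.5%) and 68.3% (67.3% to 69.2%) of thinned cells and in 92.4%, 94.6%, 89.1% and 87.6% unthinned. Its lowest class was pDC, at 50%, 48.4%, 24.2% and 27.6%, although pDC were deeper, at medians of 11836, 12448, 13912 and 13396 UMIs.

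Nr4a1 was in 29.7% (28.8% to 30.6%), 31.3% (30.3% to 32.4%), 23.0% (22.0% to 23.9%) and 29.8% (28.9% to 30.8%) of thinned cells and 47.6%, 53.2%, 40.4% and 48.2% of unthinned cells. It was in 89.3%, 71.2%, 80.9% and 81.1% of thinned patrolling monocytes, highest in untreated WT and lowest in treated WT. Its lowest shares were 16.7% and 12.5% in pDC of the WT libraries, 5.35% in PD-1+ CD8 T cells of miR-146a-/- and 6.71% in ILC1 of DKO, at median depths of 11836, 12448, 6837 and 7348 UMIs. Hspa1a was in 27.2% (26.3% to 28.1%), 23.9% (22.9% to 24.8%), 13.6% (12.8% to 14.4%) and 15.7% (15.0% to 16.4%) of thinned cells and 38.7%, 37.1%, 25.6% and 29.6% of unthinned cells. NK cells held the lowest shares of Hspa1a, 8.39%, 9.50%, 5.31% and 5.12%, at median depths of 6570, 8323, 9698 and 8439 UMIs.

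Genes of the same pathways outside the module were followed as 5 further lists. Of the other early genes, 14 of 23 were more than 1.5-fold lower in miR-146a-/- than in WT and none higher (5.27% and 1.37% of all genes), with a median log2 ratio of -0.67. Plk2, a kinase of the stress response, was at 13.1, 16.5, 5.37 and 9.60 CPM, and Cxcl2, a neutrophil chemokine, at 13.2, 64.1, 34.5 and 50.7 CPM. Both were lower in miR-146a-/- than in treated WT, at -2.24 and -1.84. In treated over untreated WT, 4 of the 23 were more than 1.5-fold higher (4.0% of all genes), led by Cxcl2 at 2.57 and the prostaglandin synthase gene Ptgs2 at 1.92. In DKO over miR-146a-/- the cytokine gene Il1b was highest at 1.35 and Plk2 next at 0.57, and Ccl4 and Tnf were lowest, both at -0.49.

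Chaperone relatives outside the module differed less than the heat shock members in miR-146a-/- over WT and did not follow them in treated over untreated WT. There the list had a log2 ratio of 0.09 and a median of 0.11, with 0 of 15 genes past 1.5-fold in either direction, against -0.60 for the heat shock members. Of 15 HSF1 targets and chaperones past the filter, 3 were more than 1.5-fold lower in miR-146a-/- than in WT (5.27% of all genes), and the list's median was -0.26. Hsph1, a nucleotide exchange factor for Hspa1 chaperones, was at 297, 204, 119 and 114 CPM. It follows the order of the members, at -0.75 in that comparison, and Dnajb4 was next at -0.61, while Chordc1 and Ahsa1, both HSP90 cofactors, were at 0.01 and 0.08. The upstream factors and kinases stayed near 0. Of 12 measured, Crem, a CRE-binding factor that is itself inducible, was at 63.0, 44.0, 24.6 and 21.0 CPM and at -0.82 in miR-146a-/- over WT, and the other 11 lay between -0.10 and 0.15. Among the other bZIP genes, whose list median was -0.33 in miR-146a-/- over WT, Nfil3 was at -0.76 there, and Batf3 was at 1.06 in DKO over miR-146a-/-. Of 4 integrated stress response genes past the filter, none was past 1.5-fold in miR-146a-/- over WT, with Atf4, which is also in the bZIP list, at -0.57 and Ddit4 at 0.36. In the other comparisons few of these genes were past 1.5-fold. Early genes were higher in 4 cases in treated over untreated WT and in 1 case of 22 in DKO over miR-146a-/- (3.44% of all genes), and no list had a gene past 1.5-fold lower in either.

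Likeness among members was small on the whole. Over 52 points (13 classes in 4 libraries) the median Pearson correlation of log2 CPM among 703 member pairs was 0.26, and 23.8% of pairs reached at least 0.5. Within single libraries, over 13 classes, the medians were 0.04, 0.09, 0.02 and 0.02, and 15.4%, 17.2%, 16.9% and 16.1% of pairs reached that value, while 46.1%, 42.2%, 48.1% and 48.4% of pairs lay below 0. The points share libraries and gates, and pairs of other genes were not set beside these values. Hspa1a and Hspa1b were most alike at 0.94 (within libraries 0.90, 0.94, 0.88 and 0.87), followed by Fos with Zfp36 at 0.93 (0.94, 0.95, 0.96 and 0.94) and Fos with Fosb at 0.92 (0.90, 0.91, 0.88 and 0.89). The lowest value was -0.71 for Ier3 with Zfp36l1 (-0.63, -0.91, -0.80 and -0.70). Outside the module, genes most like the summed AP-1 group over the 52 points included 9930111J21Rik2 (0.82), Gm26532 (0.81), Gm26887 (0.79), Tob2 (0.74), Hspa4 (0.72), Coq10b (0.72), Mpp7 (0.71), Bambi (0.70) and Gla (0.68). Most values of these outside genes were lower within libraries, for 9930111J21Rik2 at 0.20, 0.05, 0.22 and 0.21.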

How the data were processed

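Raw UMI counts per gene and cell were deposited by the authors, made with Cell Ranger on mm10 (version 7.0.1 by the file headers, another in the paper; intron counting not given). Cells with 600 to 6000 detected genes and at most 5% mitochondrial UMIs were kept. A lineage was taken at 3 or more marker UMIs where every other lineage held at most 2 UMIs or 20% of its own. NK markers did not exclude T cells, and monocyte markers did not exclude dendritic cells. Classes within lineages used cut-offs set after the data were seen. Doublets were limited only by the 6000-gene limit and these gates. CPM came from summed UMIs with exact 95% Poisson intervals, and log2 ratios used a prior of 0.5 UMI. The filter asked for 20 UMIs in either library and a mean of 5 CPM. All 38 members are named. Full values are given for the 10 highest by CPM, the 5 highest and 5 lowest ratios per comparison and the highest of each role group. Of other lists the 2 highest and 2 lowest ratios per comparison could be named. Outside the lists these were the 10 genes most like the summed AP-1 group among those past a limit of 20 CPM. That limit was not on the all-cell level, where Gm26532, for instance, was at 17.9 CPM in untreated WT and lower in the other libraries. Members and lists were chosen with earlier results of these data known. Alternatives changed cell limits, gates, scaling, weighting, prior, threshold and filter; a stricter gate was added after seeing the data. Software was Python 3.11.15, numpy 2.4.6, scipy 1.17.1, pandas 2.3.3 and matplotlib 3.10.9, and ratios and intervals were tested on simulated data.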

Additional observations from a re-analysis of the deposited data

How the results depend on the processing

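Every log2 ratio of the summed members kept its direction under every alternative run except the mean of the members' log2 ratios in treated over untreated WT, which weights rare members like abundant ones. In what follows, all-cell ratios are over all kept cells and standardised ratios are over classes. Counts are of members past the fold threshold. The causes of these moves were not tested.

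With no cell filter, treated over untreated WT was -0.16 all-cell, and miR-146a-/- over WT was -0.80 all-cell and -0.88 standardised. In the latter comparison 33 of 37 members were lower (4.83% of genes). DKO over miR-146a-/- was then 0.13 standardised, with 1 member higher (3.13% of genes). With ratios centred on the median of all genes, treated over untreated WT was -0.12 all-cell, miR-146a-/- over WT was -0.82 all-cell and -0.89 standardised, and DKO over miR-146a-/- was 0.17 and 0.16. With ribosomal protein and mitochondrial UMIs left out of the total, treated over untreated WT was -0.19 all-cell, miR-146a-/- over WT was -0.90 standardised, and DKO over miR-146a-/- was 0.15 and 0.16. With the mean over cells of each cell's CPM, treated over untreated WT was -0.18 all-cell and -0.13 standardised. miR-146a-/- over WT was then -0.84 and -0.92, and DKO over miR-146a-/- was 0.16 on both measures, with 1 member higher (3.56% of genes). With the mean of the members' log2 ratios, treated over untreated WT was 0.09 all-cell and 0.04 standardised, miR-146a-/- over WT was -0.89 and -1.11, and DKO over miR-146a-/- was 0.09 all-cell.

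With a gate of at least 6 marker UMIs, the standardised ratios were -0.16, -0.90 and 0.14, with 1 member higher in DKO (3.34% of genes). With no limit on other lineages they were -0.12, -0.90 and 0.13, with 4 members higher in treated WT (4.29% of genes). With at most 2 UMIs of any other lineage, added after seeing the data, miR-146a-/- over WT was -0.90, with 32 members lower (5.03% of genes). DKO over miR-146a-/- was then 0.12, with 1 member higher (3.72% of genes). With classes weighted by their untreated WT cells, the standardised ratios were -0.16, -0.88 and 0.12. There 4 members were higher in treated WT (5.46% of genes), 31 lower in miR-146a-/- (4.63%) and 1 lower in DKO (0.817%). At a 2-fold threshold, 0 members were higher in treated WT (1.45% of genes), 21 lower in miR-146a-/- (1.69%) and 1 higher in DKO (1.55%). A prior of 5 UMIs left 1 member higher in DKO. With all kept cells summed, 4 members were higher and 2 lower in treated WT (6.26% and 4.07% of genes). On that measure 27 of 37 members were lower in miR-146a-/- (3.23%), and 0 were higher and 1 lower in DKO (1.74% and 0.985%).

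Of all the alternatives for these results, 102 values stayed within counting error or within 1.5 times the count, and 48 moved. Of the values of single named members, 241 stayed within counting error, 86 moved and 0 reversed. These alternatives did not include summing all kept cells, on which the direction of small ratios of single members depends. All-cell ratios kept the sign of every member in miR-146a-/- over WT. They had the other sign in treated over untreated WT for members such as Nr4a1 (0.08), Ppp1r15a (-0.17), Cd69 (-0.29), Klf4 (0.35) and Egr3 (-0.31), and in DKO over miR-146a-/- for members such as Ier5 (0.04), Dnajb1 (-0.06), Egr1 (0.15), Nr4a3 (-0.16) and Egr2 (-0.29). Depth limits Egr2, Egr3 and Maff, whose counting intervals are wide, and low levels of Atf3, Klf4 and Ier3 in lymphocyte classes carry equal weight with well-counted classes. Mice, dissociation, library and group cannot be told apart. No paired analysis was possible because each group is 1 library and no pairing of mice is given.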
